A study of Arabidopsis thaliana with 12 samples.

Results

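CHI (AT2G43570) and AT2G43590 are 2 putative chitinase genes of Arabidopsis thaliana that lie close together on chromosome 2, with a single protein-coding locus, AT2G43580, between them. CHI here is the chitinase locus and not the chalcone isomerase that is often given the same symbol. The pair was selected on its measured signals over the 4 groups of the study, as relatives with unlike values in the mutant in the cold, so the levels and differences of these 2 genes are described below without a test. They are 2 of the 13286 loci measured by a probe set of 1 gene, and each is represented by 1 probe set, 260568_at for CHI and 260560_at for AT2G43590.

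The mutant sid2-1 carries a lesion in an isochorismate synthase of salicylic acid synthesis, and both it and the wild type (WT) are in the accession Col-0. The 4 groups were sid2-1 at 4 °C, WT at 4 °C, sid2-1 at 22 °C and WT at 22 °C, each with 3 biological replicates on 1 array apiece. The titles of all 3 WT samples at 22 °C, and of no other sample, end in an unexplained "[2]", so whatever it stands for cannot be told apart from that group. All plants were raised in soil at 22 °C with 12 h of light for about 23 days, and the cold groups then spent 3 weeks at 4 °C with the same day length. Per the labels, harvest was at ZT4, that is 4 h after lights on. RNA came from all above-ground tissue, pooled over its cell types. The cold plants were therefore also older by 3 weeks, and cold and age cannot be told apart in any 4 °C against 22 °C difference.

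Chitinases are secreted or vacuolar glycoside hydrolases that cut chitin, the polymer of fungal cell walls. Plant enzymes fall into the unrelated glycoside hydrolase families 18 and 19, and many are counted among the pathogenesis-related proteins, whose genes respond to salicylic acid, jasmonate, ethylene or chitin fragments. In cold-hardened cereals such as winter rye, certain apoplastic chitinases also bind ice and slow its growth. The gene mutated in sid2-1 provides most of the salicylic acid made after infection, and salicylic acid also accumulates in Arabidopsis shoots during long cold.

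The signals are log2 values, so that a difference of 1 is a doubling, and run from a lowest value of 2.2 to 14.46. Array medians lay between 4.39 and 4.47, and replicate arrays correlated across probe sets at 0.978 to 0.990. Replicate 2 of WT at 4 °C stood apart from the other arrays of its group, with 47.8 on the second principal component (13.4% of the variance) against 10.6 and 3.98, so the values of the pair are also given without it, as are the calls named below that were lost or gained on leaving it out. Leaf markers were near the top of the range (RCA, LHCB4.2 and LHCB4.1, 12.0 to 14.0 on all arrays), whereas all 5 measured root markers stayed at or below 2.54. Of the flower markers, the tubulin gene TUA1 is the single one with a named probe set of 1 gene, at 7.09 to 8.21. No named probe set measures the gene mutated in sid2-1, so the genotype labels could not be checked on it.

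CHI was high in WT at 4 °C alone. In sid2-1 at 4 °C its signals were 3.88, 6.03 and 5.56, against 9.37, 11.12 and 8.71 in WT at 4 °C. At 22 °C the gene gave 3.93, 3.22 and 4.44 in sid2-1 and 4.26, 5.41 and 4.3 in WT. The 3 WT arrays at 4 °C lay above every other array, and the remaining 9 arrays overlapped across their groups. The group means were 5.16 ± 1.13 in sid2-1 at 4 °C and 9.73 ± 1.25 in WT at 4 °C, with 3.86 ± 0.61 in sid2-1 at 22 °C and 4.66 ± 0.65 in WT at 22 °C (SD, n = 3 each). From the highest down the order was WT at 4 °C, sid2-1 at 4 °C, WT at 22 °C and sid2-1 at 22 °C. Neighbours in that order from the second place down differed by 0.50 and 0.79, and their values overlapped.

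AT2G43590 was high in both genotypes at 4 °C. Its signals there were 7.63, 7.81 and 7.59 in sid2-1 and 8.09, 9.40 and 6.63 in WT. At 22 °C it stood close to the lowest value on all arrays, with 2.76, 2.82 and 2.81 in sid2-1 and 2.82, 3.05 and 2.87 in WT. The 6 cold arrays lay far above the 6 warm arrays, and the mutant values at 4 °C fell inside the range of the WT values. The group means were 7.68 ± 0.12 in sid2-1 at 4 °C and 8.04 ± 1.39 in WT at 4 °C, with 2.80 ± 0.03 in sid2-1 at 22 °C and 2.91 ± 0.12 in WT at 22 °C (SD, n = 3 each), which gives the same order of groups as for CHI. The genotypes overlapped at 4 °C and again at 22 °C. The spread in the cold was itself unlike between genotypes, with an SD of 0.12 in sid2-1 and 1.39 in WT.

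**Figure D1:**
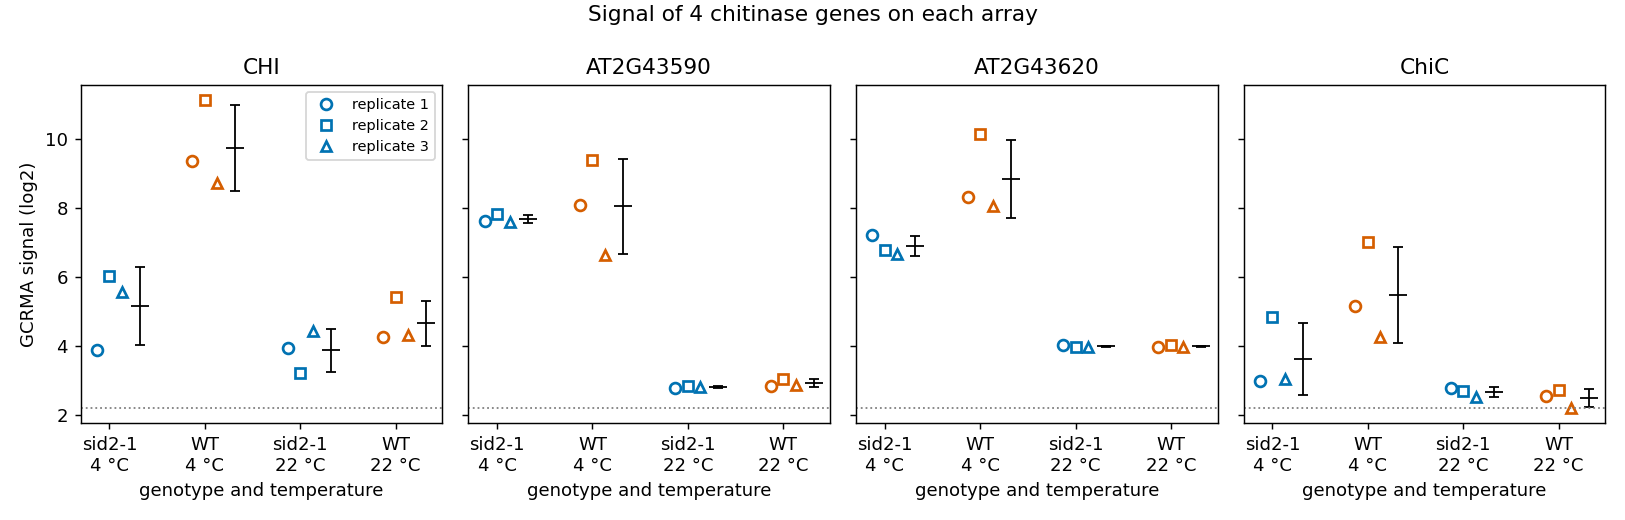
GCRMA signal (log2) of CHI, AT2G43590, AT2G43620 and ChiC on each of the 12 arrays, by genotype and temperature. Open symbols are replicates 1 to 3, black marks the group mean with SD (n = 3), and the dotted line is the lowest value of 2.2; CHI reaches 8.71 or more only in WT at 4 °C, whereas AT2G43590 lies at 6.63 or more on all 6 cold arrays.

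The cold difference of CHI was 1.29 ± 0.75 on the log2 scale in sid2-1 (SE of the fit, n = 3 against 3), a 2.45-fold difference between overlapping groups. In WT it was 5.08 ± 0.75, or 33.7-fold, and 15 of the 22746 probe sets had a larger rise. On the log2 scale the difference in sid2-1 was thus 25.5% as large as that in WT, or 29.5% without WT replicate 2 at 4 °C. For AT2G43590 the cold difference was 4.88 ± 0.55 in sid2-1 (29.4-fold) and 5.13 ± 0.55 in WT (34.9-fold), so that the mutant had 95.2% of the WT difference, or 109.7% without that array. In sid2-1 only 12 probe sets rose more than AT2G43590, against 463 that rose more than CHI. In WT the 2 genes held adjoining ranks, with 14 and 15 probe sets above them. Because AT2G43590 is so close to the lowest value at 22 °C, the size of its fold depends on the background correction. With all values below 4 raised to 4, its cold difference was 3.68 in sid2-1 and 4.04 in WT.

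Between genotypes at 4 °C, CHI was 23.9-fold lower in sid2-1 than in WT (log2 difference -4.58 ± 0.75, SE), and 6 of all probe sets had a more negative difference. AT2G43590 differed by -0.36 ± 0.55, a 1.29-fold difference well inside the spread of the WT arrays. At 22 °C the differences were -0.79 ± 0.75 for CHI and -0.12 ± 0.55 for AT2G43590, both between overlapping groups. The cold response of sid2-1 minus that of WT was -3.78 ± 1.06 for CHI and -0.25 ± 0.78 for AT2G43590. The SE pools the spread of the 4 groups, and for AT2G43590 nearly all of that spread comes from WT at 4 °C.

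WT replicate 2 at 4 °C gave the highest signal of its group for both genes, 2.08 above the mean of the other replicates for CHI and 2.04 above it for AT2G43590. Without that array the WT cold difference was 4.38 for CHI and 4.45 for AT2G43590. The genotype difference at 4 °C was then -3.88 for CHI, a 14.8-fold lower signal in sid2-1. For AT2G43590 it turned to 0.32, with the mutant 1.25-fold above WT. The direction of the small genotype difference of AT2G43590 therefore rests on 1 array. The difference of CHI ran from -5.09 to -3.88 with single arrays left out. Its sign could not have changed, because the genotypes do not overlap for CHI at 4 °C and the gene was selected on these values.

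The rest of the gene cluster was then examined. A row of 6 family 19 chitinase loci runs from CHI to AT2G43620, a family assignment taken from general knowledge because the gene tables at hand give 5 of them no symbol. AT2G43580, which lies between the pair, stood at 2.2 to 2.26 on all 12 arrays. AT2G43600 was at 2.74 to 3.38 and AT2G43610 at 2.2 on every array. These signals are at or near the lowest value of the arrays and show no difference between groups. AT2G43620, at the far end of the row, was the third of its genes with a high signal in the cold.

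AT2G43620 had signals of 7.22, 6.79 and 6.66 in sid2-1 at 4 °C, against 8.32, 10.14 and 8.05 in WT at 4 °C. At 22 °C all 6 arrays lay between 3.96 and 4.01, where values repeat almost exactly. Whether the background correction sets that level was not tested. The gene rose in both genotypes, by 2.91 ± 0.46 in sid2-1 (SE, adjusted p = 0.00955, limma) and by 4.86 ± 0.46 in WT (adjusted p = 0.000664). Expressed on the log2 scale, the rise in sid2-1 was 59.9% of that in WT, or 69.2% without WT replicate 2 at 4 °C. At 4 °C the mutant values lay below all WT values, which is a description only, as no share of all probe sets separated in this way is given. The difference of -1.95 ± 0.46 did not pass the test over all probe sets (adjusted p = 0.165). It did pass without WT replicate 2 at 4 °C, where it was -1.30 (adjusted p = 0.0137), and when only probe sets with a mean signal above 4 were tested (adjusted p = 0.0394). The gene met that filter through its cold arrays, since its mean at 22 °C was 3.98 in each genotype.

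**Figure D2:**
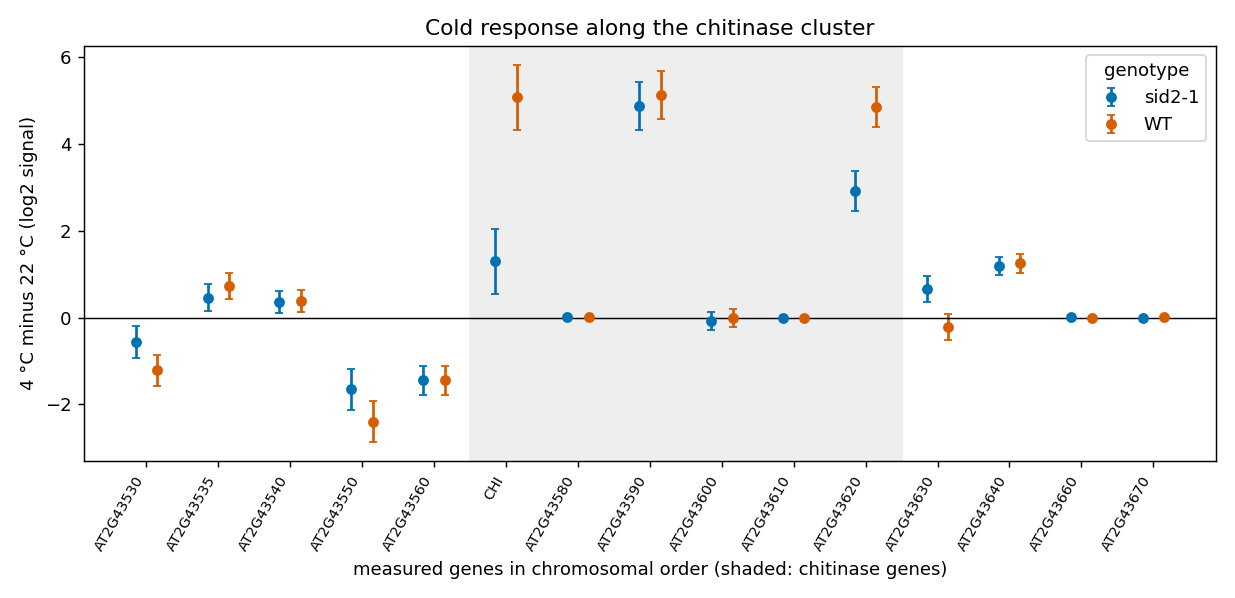
Difference between 4 °C and 22 °C (log2 signal, ± SE of the fit, n = 3 against 3) of the 15 measured genes around the cluster, in chromosomal order, for sid2-1 and WT, with the 6 chitinase genes shaded. CHI, AT2G43590 and AT2G43620 stand up to 5.13 in WT, with 1.29, 4.88 and 2.91 in sid2-1, and the other 3 chitinase genes of the row lie near 0.

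Loci on either side of the row had other values. Of the 16 other protein-coding loci from AT2G43500 to AT2G43700, 9 have a named probe set of 1 gene. In sid2-1 in the cold 1 of them rose and 1 fell, and in WT 1 rose and 2 fell, where 3.2% of all probe sets were called higher and 3.08% lower in sid2-1, and 6.81% higher and 6.19% lower in WT. AT2G43640 rose by 1.19 ± 0.22 in sid2-1 (adjusted p = 0.0162) and by 1.25 ± 0.22 in WT (adjusted p = 0.00756), with no genotype difference past the test. AT2G43560, the locus next to CHI, fell by 1.45 ± 0.33 on the log2 scale in sid2-1 (adjusted p = 0.0400) and by 1.45 ± 0.33 in WT (adjusted p = 0.0243, but 0.0748 without WT replicate 2 at 4 °C). AT2G43550 fell by 2.40 ± 0.47 in WT (adjusted p = 0.0127) and stood at -1.66 ± 0.47 in sid2-1 (adjusted p = 0.0801, but 0.0125 without that array). None of the 9 was called between genotypes at either temperature (limma), where 0.615% of all probe sets were called at 4 °C and 0.0044% at 22 °C. At an unadjusted p under 0.05, limma gave 2 of the 9 at 4 °C and 1 at 22 °C. Over all probe sets it gave 9.83% at 4 °C and 3.03% at 22 °C. Of the remaining 6, AT2G43530 stood at -0.56 ± 0.37 in sid2-1 and -1.22 ± 0.37 in WT in the cold (adjusted p = 0.0634 in WT), AT2G43535, AT2G43540 and AT2G43630 at 0.36 to 0.65 in sid2-1 and -0.23 to 0.73 in WT, and AT2G43660 and AT2G43670 at 2.2 to 2.23 on all arrays.

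The wider chitinase family was set beside the pair. Of 24 chitinase genes listed from general knowledge, 14 of family 19 and 10 of family 18, a named probe set of 1 gene measures 10 and 5. Apart from CHI and AT2G43590 this leaves 13, of which 8 stayed below 3.5 on every array. Beside the 3 low genes of the row these were AT1G56680, AT4G19720, AT4G19730 and AT4G19740 at 2.2 to 2.33, and AT4G19820 at 2.2 to 2.95. In sid2-1 in the cold 1 of the 13 rose and none fell, where 3.2% of all probe sets were called higher (at an unadjusted p under 0.05, 3 of the 13 differed, as did 20.6% of all probe sets). In WT 3 of the 13 rose and none fell, where 6.81% of all probe sets were called higher. The median cold difference over the 13 was 0.00 in both genotypes, as it was over all probe sets.

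The 3 that rose in WT were AT2G43620, ChiC and AT1G02360. ChiC, a family 18 chitinase gene (AT4G19810), had signals of 2.98, 4.83 and 3.05 in sid2-1 at 4 °C, against 5.16, 7.0 and 4.25 in WT at 4 °C. At 22 °C it was at 2.51 to 2.78 in sid2-1 and at 2.2 to 2.73 in WT, close to the lowest value. Its rise in WT was 2.98 ± 0.70 (adjusted p = 0.0255), and in sid2-1 it stood at 0.96 ± 0.70 (adjusted p = 0.509). The cold and warm mutant arrays of ChiC did not overlap, a description only, as no share of all probe sets is given for it. The genotypes overlapped at 4 °C (-1.85 ± 0.70, adjusted p = 0.426). The family 19 gene AT1G02360 rose by 0.87 ± 0.23 in WT (adjusted p = 0.0424) and stood at -0.27 ± 0.23 in sid2-1 (adjusted p = 0.588). Without WT replicate 2 at 4 °C only AT2G43620 remained called, with adjusted p = 0.0515 for ChiC and 0.0680 for AT1G02360. The ChiC call was lost in 7 of 18 alternative settings. With values below 4 raised to 4 its WT difference was 1.47 (adjusted p = 0.183), with the 2 WT groups compared alone the adjusted p was 0.110, and without any 1 of the WT arrays at 22 °C it was 0.0575 to 0.0805. The AT1G02360 call was lost in 13 of 19 alternative settings, with adjusted p = 0.174 for the 2 WT groups alone.

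At 4 °C none of the 13 was called between sid2-1 and WT, where 0.615% of all probe sets were called and 0.602% were called lower in sid2-1 (140 probe sets in all, and 27 with the replicate number as a block within each temperature). At an unadjusted p under 0.05, limma gave 5 of the 13, all with lower values in sid2-1, and 9.83% of all probe sets. These were AT4G01700 (-2.23 ± 0.50, adjusted p = 0.131), AT2G43620, ChiC, AT3G47540 (-1.55 ± 0.45, adjusted p = 0.283) and AT1G02360 (-1.19 ± 0.23, adjusted p = 0.0830). AT4G01700 had 3.9, 5.12 and 3.52 in sid2-1 at 4 °C, against 6.40, 6.96 and 5.87 in WT at 4 °C. AT3G47540 had 6.36, 6.26 and 5.08 in sid2-1 at 4 °C, against 7.87, 7.93 and 6.55 in WT at 4 °C. In both of these genes every mutant value lay below every WT value in the cold, but both were picked at an unadjusted p under 0.05 (limma). No share of all probe sets separated in this way is given here, so the separation is a description only. At 22 °C the genotypes overlapped, with 4.86 to 5.94 in sid2-1 and 4.98 to 6.09 in WT for AT4G01700, and 7.0 to 7.56 in sid2-1 and 6.99 to 7.67 in WT for AT3G47540. The cold difference of AT4G01700 was -1.22 ± 0.50 in sid2-1 (adjusted p = 0.206) and 0.87 ± 0.50 in WT (adjusted p = 0.333). That of AT3G47540 was -1.41 ± 0.45 in sid2-1 (adjusted p = 0.116, and 0.0347 when only probe sets with a mean above 4 were tested) and 0.19 ± 0.45 in WT (adjusted p = 0.932). When only probe sets with a mean above 4 were tested, 3 genes were called lower in sid2-1, where 1.6% of the 12422 probe sets left were called lower, namely AT1G02360 (adjusted p = 0.0260), AT4G01700 (adjusted p = 0.0264) and AT2G43620. The last of these met the filter through its cold arrays.

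**Figure D3:**
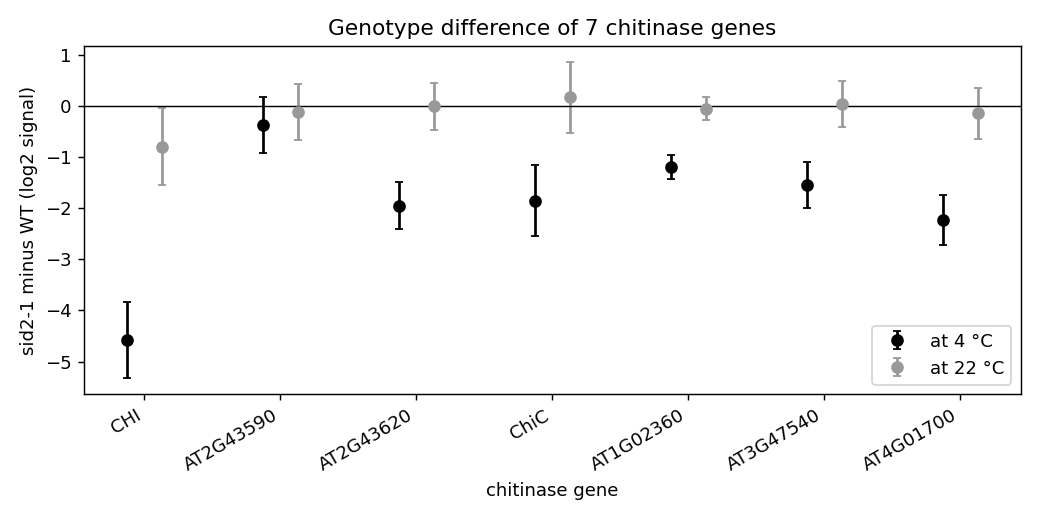
Difference between sid2-1 and WT (log2 signal, ± SE of the fit, n = 3 against 3) at 4 °C and at 22 °C for CHI, AT2G43590 and the 5 other chitinase genes that exceeded 3.5 on any array. At 4 °C the points run from -4.58 for CHI to -0.36 for AT2G43590, and at 22 °C from -0.79 for CHI to 0.17 for ChiC.

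At 22 °C no other chitinase gene was called between genotypes (limma; 0 of 13 also at an unadjusted p under 0.05), where 0.0044% of all probe sets were called, a single one that was lost with the block. For the difference of the cold responses 0 of 13 were called and 4 had an unadjusted p under 0.05, against 0.0615% called among all probe sets (14 probe sets, and 0 with the block) and 4.08% with an unadjusted p under 0.05. The values were -2.09 ± 0.70 for AT4G01700, -1.95 ± 0.65 for AT2G43620, -1.59 ± 0.64 for AT3G47540 and -1.14 ± 0.33 for AT1G02360, with adjusted p of 0.739 to 0.936. ChiC stood at -2.02 ± 0.99 (adjusted p = 0.936). Whether CHI differs from these genes in its dependence on the genotype was not tested.

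Among genes of chitin perception, 2 of 10 listed have a named probe set of 1 gene. In the cold 1 of the 2 was called higher in each genotype, as were 3.2% of all probe sets in sid2-1 and 6.81% in WT. BIK1, a receptor-like cytoplasmic kinase that acts downstream of pattern receptors, rose by 1.45 ± 0.29 in sid2-1 (adjusted p = 0.0233) and by 1.95 ± 0.29 in WT (adjusted p = 0.00395). Its signals were 5.76, 5.76 and 5.74 in sid2-1 at 4 °C, against 5.76, 7.11 and 6.24 in WT at 4 °C, and 4.07 to 4.59 on the warm arrays. The value 5.76 thus repeats on 3 cold arrays over both genotypes, and the source of the repeat was not tested. The other measured gene, AT5G18610, was at 2.34 to 2.40 throughout. Of the 23 listed genes of salicylic acid synthesis and response, a named probe set of 1 gene measures 3. The others may lie among probe sets without a gene name, which were not searched. In the WT cold response 1 of the 3 was called higher, as were 6.81% of all probe sets. SAG101, a partner of EDS1 in immune signalling, rose by 1.13 ± 0.26 in WT (adjusted p = 0.0225, but 0.0646 without WT replicate 2 at 4 °C) and stood at 0.90 ± 0.26 in sid2-1 (adjusted p = 0.0803). GRX480, a glutaredoxin gene known to respond to salicylic acid, was at 3.14, 3.41 and 3.13 in sid2-1 at 4 °C, against 3.82, 4.42 and 3.71 in WT at 4 °C, without a call (-0.76 ± 0.20, adjusted p = 0.220). UGT74F1, a glucosyltransferase gene, gave 5.46 on 10 of 12 arrays.

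In the jasmonate and ethylene list 3 of 12 genes have a named probe set of 1 gene, and none of these was called in any contrast (limma). In the WT cold response 6.81% of all probe sets were called higher. At an unadjusted p under 0.05, limma gave 2 of the 3 there, and 25.8% of all probe sets. The defensin genes PDF1.2 and PDF1.2b differed by 0.44 ± 1.28 and 0.26 ± 1.05 in sid2-1 and by 3.59 ± 1.28 (adjusted p = 0.110) and 3.70 ± 1.05 (adjusted p = 0.0524) in WT. At 22 °C PDF1.2 had 9.05, 4.82 and 4.69 in sid2-1, against 4.05, 4.03 and 4.03 in WT. PDF1.2b had 9.43, 6.73 and 5.77 in sid2-1 there, against 4.8, 5.87 and 4.5 in WT. These warm genotype differences were 2.15 ± 1.28 and 2.25 ± 1.05, with 1 and 0 probe sets above them, and were not called. At 4 °C the genotypes overlapped for both genes, so a loss of the cold level in sid2-1 cannot be read from the cold differences. All 6 measured cold-regulated genes rose in sid2-1, where 3.2% of all probe sets were called higher, and 5 of 6 in WT, where 6.81% were. None of the 6 was called between genotypes at 4 °C, against 0.615% of all probe sets (limma; 0 of 6 at an unadjusted p under 0.05). LTI30, a dehydrin gene, rose by 6.45 ± 0.45 in sid2-1 and by 6.14 ± 0.45 in WT. COR27 rose by 5.09 ± 0.41 in sid2-1 and by 4.72 ± 0.41 in WT, and COR15B by 3.58 ± 0.42 and 3.57 ± 0.42.

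Of 10 senescence genes 2 have a named probe set of 1 gene. In the WT cold response 1 of the 2 was called higher, as were 6.81% of all probe sets. WRKY53, a transcription factor gene of leaf senescence and defence, had 2.89, 4.91 and 3.47 in sid2-1 at 4 °C, against 6.89, 8.56 and 6.78 in WT at 4 °C. At 22 °C it lay at 3.60 to 4.51 in sid2-1 and at 3.31 to 4.64 in WT. It rose by 3.51 ± 0.65 in WT (adjusted p = 0.0104) and stood at -0.21 ± 0.65 in sid2-1, with -3.65 ± 0.65 between genotypes at 4 °C (adjusted p = 0.0583). SAG29 was at 3.45 to 4.06 on all arrays, and the defining late marker SAG12 is not among the named probe sets. The part of senescence in the CHI signal was not tested, and in such bulk tissue a change in the share of a cell type and a change of RNA per cell cannot be told apart.

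Genes with the most similar pattern were found by the root mean square (RMS) difference over the 12 arrays, after each gene was centred on its own mean, among 13435 probe sets of 1 gene. The 6 nearest to CHI were AT3G47480 (0.66 on the log2 scale), AT3G18250 (0.73), the subtilase gene SBT3.3 (0.73), AT4G39670 (0.74), AT5G18470 (0.80) and AT5G55450 (0.87). All 6 had their highest group mean in WT at 4 °C, which follows from choosing them for likeness to CHI over these arrays. AT3G47480, the nearest, had 2.89, 5.18 and 3.79 in sid2-1 at 4 °C, against 7.42, 8.43 and 7.06 in WT at 4 °C. Like CHI, it had its lowest cold value on sid2-1 replicate 1 and its highest on WT replicate 2. Among the warm WT arrays both were highest on replicate 2, where AT3G47480 gave 4.78. These shared replicate values are part of what the gene was chosen on.

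The 6 nearest to AT2G43590 were AT5G51570 (0.76), AT1G16850 (0.81), AT5G52390 (0.84), AT2G43620 (0.84), COR27 (0.93) and AT1G53035 (0.94). None of these 6 was among the 6 nearest to CHI, but the pair was selected for unlike values over these groups. AT5G51570 had 8.78, 8.78 and 9.09 in sid2-1 at 4 °C, against 9.33, 9.69 and 9.47 in WT at 4 °C, and 4.92 to 5.54 at 22 °C. AT2G43620, from the same gene row, stood in place 4 of this list. CHI itself was in place 145 of the genes ordered by likeness to AT2G43590, and AT2G43590 in place 205 of those ordered by likeness to CHI, at an RMS difference of 1.85. These places and the separate lists reflect the selection of the pair. The ordering depends on the measure, since ranking by Pearson correlation over the same arrays kept 3 of the 6 for CHI and 1 of the 6 for AT2G43590.

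**Figure D4:**
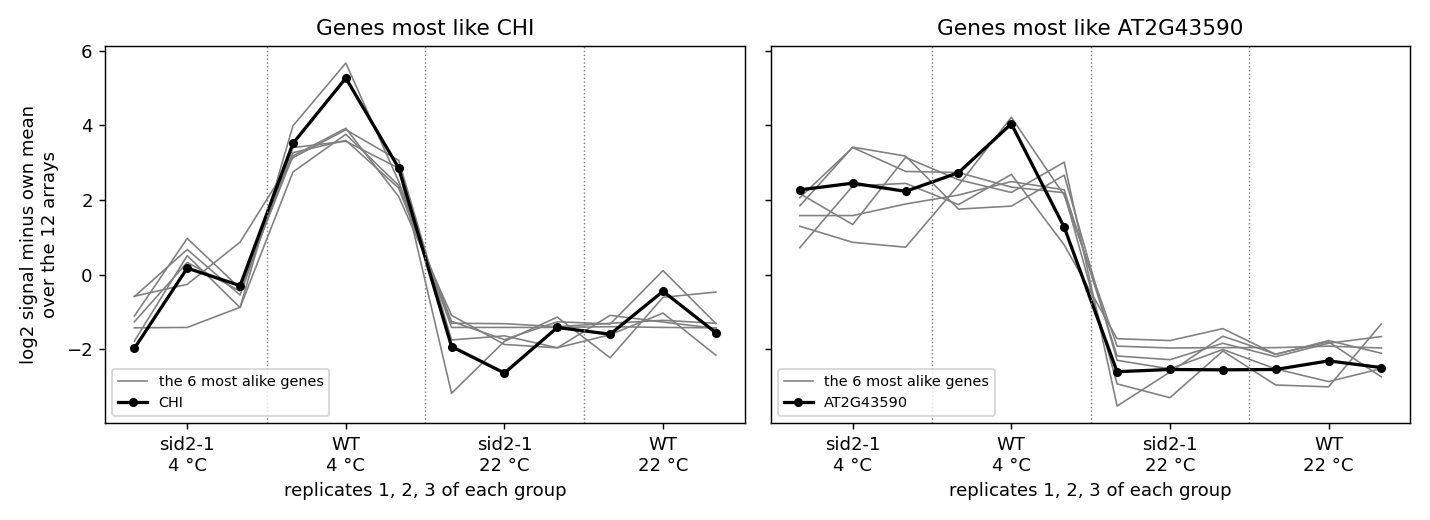
Log2 signal minus each gene's own mean over the 12 arrays, by array, for CHI with its 6 most alike genes and for AT2G43590 with its 6 (lines join the arrays for legibility and carry no order). The CHI set peaks in WT at 4 °C, whereas the AT2G43590 set is high on all cold arrays of both genotypes. Each set was chosen for likeness over these arrays, so its shared shape follows from that choice.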

How the data were processed

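Signals of 12 Affymetrix arrays, 1 per sample, were analysed. The deposited values are log2 signals per probe set, made by the authors with GCRMA, which corrects the background and normalizes between arrays, per the submitters' processing notes; versions and the set of arrays normalized together are not given in the sources used here. The lowest value, 2.2, holds 14.7% of the values. Of 22810 probe sets 64 controls were left out and 22746 tested. Probe sets were named through the platform table (13513 of 1 gene, 503 of several, 8730 of none) and the RefSeq gene table of TAIR10.1 (13436 matched), which was used for names and gene order only. Throughout, a gene counts as measured only where a named probe set of 1 gene stands for it. Genes without one may lie among the unnamed or shared probe sets, which were not searched. Precision is limited by the 3 arrays per group.

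A limma 3.58.1 model (R 4.3.3) of the 4 group means used the 12 arrays together (8 residual and 0.61 prior degrees of freedom), p values are two-sided, and calls are at an adjusted p under 0.05 (Benjamini-Hochberg over all probe sets tested in a contrast). The fit was tried on simulated data with independent noise, no paired replicates and the least variable probe sets left out. That trial does not cover the paired deviations or repeated lowest values of these arrays. Tables were made in pandas 2.3.3 under Python 3.11.15, and plots in matplotlib 3.10.9. The 2 genes and the gene lists were chosen with earlier results of these data known. The text names the pair, all other measured chitinase genes, measured neighbours, list members called (up to 3 with the largest change, or 2 as values) and the 6 most alike genes. Same-numbered arrays of the 2 genotypes deviated together within a temperature (correlations of 0.211 to 0.252 at 4 °C and 0.283 to 0.467 at 22 °C, 3 pairs each), but not in every pair across temperatures (lowest -0.05). The replicate number was therefore tried as a block, over all arrays and within each temperature. Other alternatives were a second quantile normalization, median centring, raising low values to 4, a filter on dim probe sets, a variance trend, fits of 2 groups and leaving out each array.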

Additional observations from a re-analysis of the deposited data

How the results depend on the processing

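The differences of CHI kept their direction and moved by less than 1 SD in all 56 recomputations tried for them other than block fits, which cannot change them. Single arrays left out gave 0.86 to 1.93 for its cold response in sid2-1 and 4.38 to 5.59 for that in WT. This is no independent support, because CHI was selected on these values. Its groups do not overlap between genotypes at 4 °C or between temperatures in WT, so no single array left out could reverse those differences. Array medians were already close, so median centring could move the differences little. The cold responses of AT2G43590 kept their direction as well, at 4.81 to 4.92 in sid2-1 and 4.45 to 5.83 in WT with single arrays left out. Its cold and warm arrays do not overlap in either genotype, so leaving out 1 array could not reverse these responses. With values below 4 set to 4 they shrank to 3.68 in sid2-1 and 4.04 in WT, and the genotype difference at 22 °C became 0, since all warm values are under 4. Its small genotype difference at 4 °C ran from -1.07 to 0.32 and its difference of cold responses from -0.95 to 0.43, both turning positive without WT replicate 2 at 4 °C. The 2-group fits, the variance trend and the dim filter do not bear on these differences of means and were not run for them. Among the other 13 chitinase genes, the WT cold response had 1 call with low values set to 4 or with the 2 groups compared alone and 1 to 3 with single arrays left out (1 on leaving out WT replicate 1, 2 or 3 at 22 °C or WT replicate 2 at 4 °C), sid2-1 against WT at 4 °C had 0 to 1, and a filter on dim probe sets gave 2 in the sid2-1 cold response (AT2G43620, higher, and AT3G47540, lower) and 3 in sid2-1 against WT at 4 °C. AT2G43620 was called in both cold responses under every setting tried, and it met the dim filter through its cold arrays.

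Over all probe sets, filtering out dim ones gave 2243 calls in the sid2-1 cold response, 213 in sid2-1 against WT at 4 °C, 0 at 22 °C and 30 in the difference of cold responses, against 1428, 140, 1 and 14 without the filter. With the 2 groups compared alone, limma called 376 in sid2-1, 1407 in WT (2956 with all arrays), 0 between genotypes at 4 °C and 2 at 22 °C. Low values set to 4 gave 0 at 22 °C and 5 in the difference of cold responses, and median centring 0 at 22 °C. Single arrays left out gave 788 to 1457 in sid2-1 (788 without sid2-1 replicate 1 at 22 °C), 1865 to 2859 in WT (1865 without WT replicate 2 at 4 °C), 84 to 281 at 4 °C, 0 to 20 at 22 °C and 0 to 70 in the difference of cold responses. The causes of these shifts were not tested.

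In this balanced design a replicate block leaves any difference of group means as it is (CHI -4.58 and AT2G43590 -0.36 between genotypes at 4 °C), so it says nothing about the stability of the pair. It gave 0 calls among the other chitinase genes between genotypes, while AT1G02360 lost its call in the WT cold response. Over all probe sets it gave 0 calls at 22 °C and 3 in the difference of cold responses. A block within each temperature, added after the data were seen, gave 27 at 4 °C, 0 at 22 °C and 0 in the difference of cold responses.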
